A study of Mus musculus with 9 samples.

Results

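The RNA of 10 plasma membrane amino acid transporters was followed in G1E cells, a line of mouse erythroid progenitors with no working Gata1 gene. The members were chosen by symbol (Slc38a5, Slc38a1, Slc38a2, Slc7a5, Slc7a1, Slc7a11, Slc3a2, Slc1a5, Slc43a1 and Slc6a9), and each matched 1 of the 27999 rows of the gene count table. The 9 libraries formed 3 groups of 3: cells infected with human mutant GATA1, cells infected with human wildtype GATA1, and cells infected with the empty HMD vector. All groups shared the G1E background, a medium with stem cell factor and erythropoietin, and infection by spinning with virus made in 293T cells. Which mutation was used, when cells were taken after infection and whether infected cells were selected are not stated in the labels. The series calls the 3 libraries of a group biological replicates without saying whether they came from separate cultures, so p-values measure only the spread between these libraries. In bulk RNA, fewer cells expressing a gene and less RNA per cell cannot be told apart.

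Amino acid transporters set how much of each amino acid a cell can take up. In maturing red cells they feed the synthesis of globin chains, and glycine in particular is joined to succinyl-CoA in the first step of heme synthesis. Several transporters are made of a light chain that carries the amino acid and a common heavy chain, CD98, encoded by Slc3a2, that brings the light chain to the cell surface. A number of these genes are known targets of ATF4, the factor that raises amino acid supply when it runs short.

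Library totals ranged from 14788962 to 17289307 counts with the mutant, from 11364358 to 13103114 with the wildtype and from 13659747 to 15052013 with the empty vector. Erythroid progenitor markers (8 of 8 detected) summed to 2702 to 2976, 3393 to 3862 and 2751 to 3014 CPM (a gene's counts scaled to the TMM-adjusted library total) with the mutant, the wildtype and the empty vector. The 6 markers of maturing erythroid cells summed to 1328 to 1442, 15502 to 27072 and 304 to 334 CPM in the same order of groups. The progenitor sum hides members that moved apart: with the wildtype against the empty vector Kit (0.375-fold), Gata2 (0.314-fold) and Myb (0.452-fold) fell, while Tfrc (1.78-fold), Klf1 (2.36-fold), Epor (2.05-fold) and Tal1 (1.26-fold) rose, and Nfe2 was not called. Markers of other blood cells summed to at most 54.6 CPM in any library for each type. The mast cell list stood at 10.3 to 13.7, 3.33 to 4.81 and 29.4 to 36.1 CPM, with Mcpt8 and Tpsb2 at 0 in all libraries, and the megakaryocyte list at 36.4 to 40.9, 23.7 to 30.01 and 49.2 to 54.6 CPM, with Gp1bb at 0. The granulocyte and monocyte list stood at 5.90 to 6.38, 0.614 to 1.54 and 4.26 to 5.53 CPM (Elane and Ly6g at 0), and the lymphoid list at 8.02 to 9.34, 7.54 to 10.1 and 11.5 to 12.3 CPM (Cd3e at 0). The part of the marker lists, the maturing erythroid one included, in the transporter differences was not tested. Human GATA1 had 8848 to 11497 counts per mutant library, 8178 to 10696 per wildtype library and 0 to 2 per empty vector library. Mutant replicates 1 and 2 differed with a chi-square per degree of freedom of 2.21 over genes (1 is sampling noise), against 15 to 55.5 for pairs within the other groups and 24.6 and 25.7 for the pairs with mutant replicate 3.

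With wildtype GATA1 against the empty vector, Slc38a5, Slc6a9 and Slc1a5 rose and Slc3a2 fell, while Slc38a2, Slc7a5, Slc7a1 and Slc7a11 did not pass the test. A gene was called at an adjusted p under 0.05 in edgeR's quasi-likelihood test fitted to all 9 libraries. Of the 8 members tested, 3 were called higher and 1 lower, where 11.4% of all 9978 tested genes were called higher and 11.9% lower. An unadjusted p under 0.05 was reached by 4 members and by 36.5% of all genes. Libraries of both groups did not overlap for the same 4 tested members, against 15.2% of genes higher and 17.4% lower without overlap. Slc38a1 and Slc43a1 had too few counts for that test. Each of the 8 tested members was above the low-count limit of 0.715 CPM in at least 3 libraries outside the wildtype group. The median log2 fold change of the 8 was −0.23, beside −0.04 over all tested genes.

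Slc38a5 encodes SNAT5, a sodium-coupled transporter of glutamine, serine, glycine and histidine (GRCm38, chromosome X, 8271133 to 8280179, plus strand). It stood at 1.75, 0.542 and 1.04 CPM in mutant replicates 1, 2 and 3, at 101.8, 74.2 and 87.5 CPM in wildtype replicates 1, 2 and 3, and at 0.660, 0.629 and 1.16 CPM in empty vector replicates 1, 2 and 3. The wildtype libraries were all far above the other 6, and the mutant and empty vector libraries overlapped. The log2 fold change was 6.72 ± 0.31 (SE) for wildtype against empty vector, a 105.5-fold difference with an adjusted p of 1.3e-08. The mutant differed from the wildtype by −6.28 ± 0.30 on the log2 scale (adjusted p 3.1e-08). Mutant against empty vector gave 0.44 ± 0.41 (adjusted p 0.640), and was not called in any of 16 alternatives. Within the mutant group the 3 libraries held 31, 9 and 16 counts of the gene, so its level there rests on few reads. Replicates 1 and 2, the closest pair over all genes, were the farthest apart for it.

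Its closest relatives in the list behaved differently. Slc38a2 encodes SNAT2, the widely expressed transporter of small neutral amino acids that cells raise when these are scarce (chromosome 15, 96687392 to 96699730, minus strand). It held 97.8, 102.6 and 119 CPM with the mutant, 93.5, 71.1 and 125 CPM with the wildtype and 117, 130 and 102 CPM with the empty vector. All 3 groups overlapped, and the log2 fold change was −0.13 ± 0.18 for mutant and −0.27 ± 0.18 for wildtype against empty vector (adjusted p 0.764 and 0.296). Mutant against wildtype gave 0.14 ± 0.18 (adjusted p 0.585). Without wildtype replicate 3, the highest of its group, the wildtype difference was −0.50 and was called (adjusted p 0.0279; alternatives 0.0279 to 0.740). Slc38a1, which encodes SNAT1 (chromosome 15, 96571418 to 96642913, minus strand), had 1 count in wildtype replicate 2 and 0 counts in the other 8 libraries. A count of 0 allows up to 0.174 to 0.264 CPM in a library (3 counts of the total, counting error only), so SNAT1 RNA was not detectable at this depth outside that library.

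The sequence around the start of Slc38a5 is shown because this gene had the largest fold change of the 8 tested members, and that of Slc7a11 because it holds a pair of matches to the letters of the C/EBP-ATF element, a site type known from genes of the amino acid response. Both are RefSeq start sites on GRCm38.p6, from 250 bases before to 30 bases after the start, 5′ to 3′ on the gene's strand. Capitals mark matches to 3 kinds of letters, searched on both strands.
Slc38a5 (chrX:8271131-8271410, plus strand): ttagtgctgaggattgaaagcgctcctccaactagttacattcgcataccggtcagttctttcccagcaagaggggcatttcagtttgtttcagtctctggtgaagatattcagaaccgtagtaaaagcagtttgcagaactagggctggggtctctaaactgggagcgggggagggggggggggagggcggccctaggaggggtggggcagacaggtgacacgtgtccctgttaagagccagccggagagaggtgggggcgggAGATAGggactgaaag
Slc7a11 (chr3:50443584-50443863, minus strand): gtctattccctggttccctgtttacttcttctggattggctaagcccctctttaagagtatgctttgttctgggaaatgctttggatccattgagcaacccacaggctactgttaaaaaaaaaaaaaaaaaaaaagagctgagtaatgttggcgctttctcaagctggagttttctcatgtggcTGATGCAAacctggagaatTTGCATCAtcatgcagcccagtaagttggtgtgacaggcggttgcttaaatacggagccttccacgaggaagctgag
GATA letters (AGATAA and also TGATAA, as well as AGATAG and also TGATAG) occurred in the window of Slc38a5, where AGATAG began at base 15 counted from the start site as base 1. In the set of 32851 windows of the same length, 28.7% held such letters, so the match is common. The C/EBP-ATF letters TGATGNAA occurred at 2 places before Slc7a11, beginning 66 bases before the start site on its own strand and 47 bases before it on the opposite strand. They were present in 3.81% of all windows. The antioxidant letters TGACNNNGC were in at least 1 window of 4 members (Slc38a2, Slc7a1, Slc43a1 and Slc6a9), and in 11.5% of all windows. A count of members and a share of windows are unlike measures, since the 7 members with windows had 10 windows in all. Windows were at hand for 7 of the 10 members, not for Slc38a1, Slc7a5 and Slc1a5, and none of the matches overlapped another. A match is a description of the letters and not of binding.

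**Figure D1:**
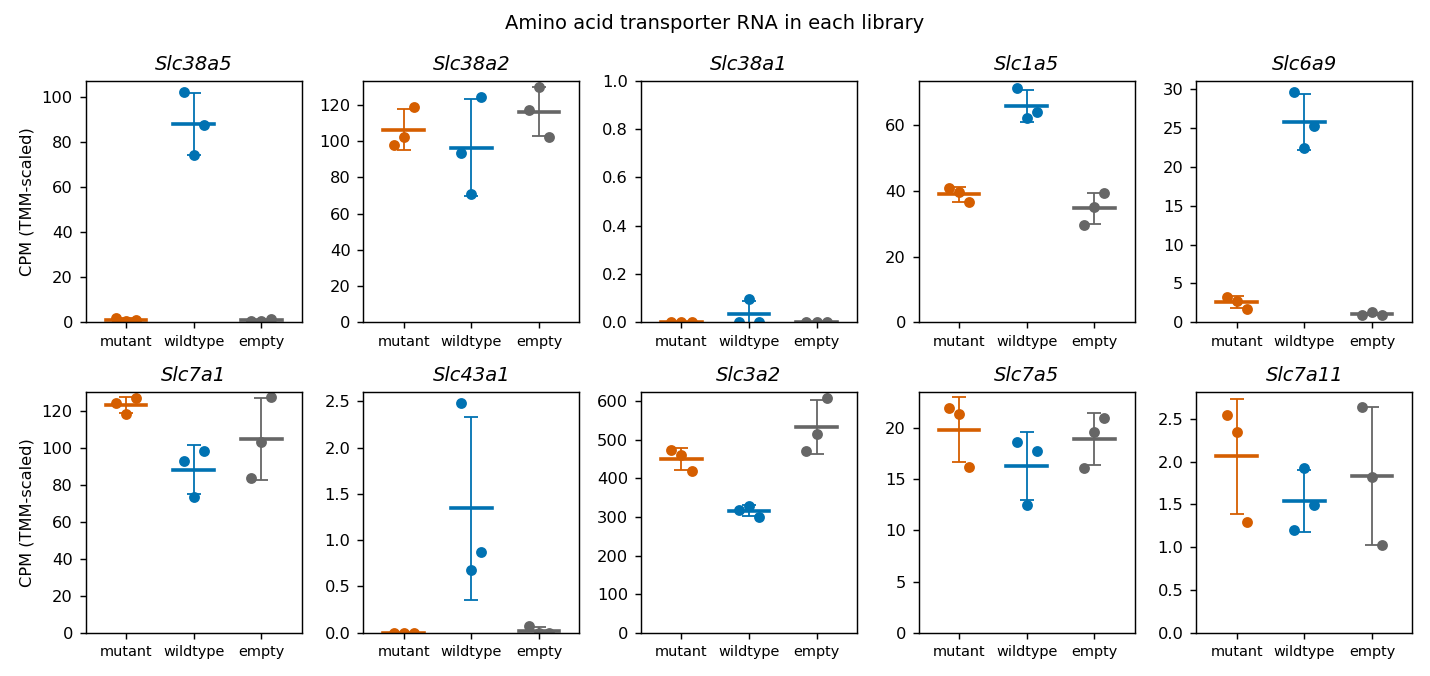
CPM (vertical axis, from 0 in each panel) of the 10 transporters in each library, with mutant, wildtype and empty vector groups from left to right. Points are libraries, thick lines group means and thin bars SD (n = 3); the wildtype points of Slc38a5 (74.2 to 101.8 CPM) and Slc6a9 (22.4 to 29.6 CPM) stand above all others, and those of Slc3a2 (300 to 328 CPM) below all others.

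Slc6a9 encodes GLYT1, the glycine transporter that supplies glycine for heme in erythroid cells (chromosome 4, 117834506 to 117875198, plus strand). It stood at 3.22, 2.71 and 1.75 CPM with the mutant, at 29.6, 22.4 and 25.3 CPM with the wildtype and at 0.953, 1.26 and 0.965 CPM with the empty vector. No group overlapped another: the wildtype libraries were highest, and the lowest mutant library was above the highest empty vector library, a pattern without overlap that 8.11% of all genes showed upward and 6.88% downward. For wildtype against empty vector the log2 fold change was 4.60 ± 0.25, or 24.2-fold (adjusted p 5.6e-08). The mutant was lower than the wildtype, with a log2 fold change of −3.32 ± 0.22 (adjusted p 4.7e-07). For mutant against empty vector the log2 fold change was 1.28 ± 0.28, which did not pass over all genes (adjusted p 0.112). It was called by DESeq2 (1.30, adjusted p 0.0101), without the low-count filter (adjusted p 0.00271) and without empty vector replicate 3 (1.21, adjusted p 0.0434), and over all alternatives the adjusted p ran from 0.00271 to 0.501. Exons of Slc6a9 overlap those of the opposite-strand genes B4galt2, Ccdc24 and Gm17114 in GENCODE M21, and these libraries keep no strand. B4galt2 was listed with at most 3 counts in any library and Ccdc24 with 0, so few reads were assigned to them.

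Slc1a5 encodes ASCT2, a sodium-dependent exchanger of glutamine and other neutral amino acids (chromosome 7, 16781340 to 16798274, plus strand). It held 40.9, 39.7 and 36.5 CPM with the mutant, 71.4, 62.3 and 64.2 CPM with the wildtype and 29.7, 35.1 and 39.2 CPM with the empty vector. The wildtype libraries were above all others, and the mutant and empty vector libraries overlapped. It rose by 0.93 ± 0.13 on the log2 scale with the wildtype, or 1.90-fold (adjusted p 0.000244), and the mutant stood −0.76 ± 0.13 from the wildtype (adjusted p 0.00125). Mutant against empty vector was 0.17 ± 0.13 (adjusted p 0.564).

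Slc43a1 encodes LAT3, a carrier of leucine and other branched-chain amino acids (chromosome 2, 84838850 to 84863594, plus strand). It had 0 counts in all 3 mutant libraries, 31, 7 and 10 counts in wildtype replicates 1, 2 and 3, and 1 count over the empty vector libraries. Every wildtype library was therefore above the other 6, at 2.48, 0.673 and 0.877 CPM. The ratio of wildtype to empty vector was 60.8, with a counting interval of 10.4 to 2453 at the 95% level, and it rests on the 1 empty vector count, in replicate 1. The ratio was 33.9 without wildtype replicate 1 and 39.1 without empty vector replicate 3; without empty vector replicate 1, no count was left in the denominator. Against a floor of 3 counts over the group, the mutant was at least 23.2-fold lower than the wildtype, and at least 12.9-fold without wildtype replicate 1, 14.9-fold without mutant replicate 1 and 15.4-fold without mutant replicate 2. Slc43a1 was below the low-count limit in the test of all genes. No adjusted p is given for it, since in other settings with a filter it passed through its wildtype libraries alone.

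Slc3a2, the CD98 heavy chain (chromosome 19, 8706882 to 8723369, minus strand), fell with the wildtype. It held 472, 460 and 417 CPM with the mutant, 319, 328 and 300 CPM with the wildtype and 471, 515 and 608 CPM with the empty vector. The wildtype libraries were below all others, and mutant replicate 1 lay within the empty vector range. The log2 fold change was −0.75 ± 0.12 for wildtype against empty vector (0.594-fold, adjusted p 0.000545). The mutant was higher than the wildtype by 0.51 ± 0.12 (adjusted p 0.00783), a call lost without mutant replicate 1 (0.47, adjusted p 0.0555; alternatives 7.1e-05 to 0.0555). Mutant against empty vector was −0.24 ± 0.12 (adjusted p 0.408).

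The light chains among the members did not pass the test for wildtype or mutant against empty vector. Slc7a5, which encodes LAT1, the carrier of large neutral amino acids (chromosome 8, 121881150 to 121907694, minus strand), held 21.9, 21.4 and 16.2 CPM with the mutant, 18.6, 12.5 and 17.7 CPM with the wildtype and 16.1, 19.6 and 21.0 CPM with the empty vector. The 3 groups overlapped, with −0.21 ± 0.19 for wildtype and 0.07 ± 0.19 for mutant against empty vector (adjusted p 0.455 and 0.889), and 0.28 ± 0.19 for mutant against wildtype (adjusted p 0.294). Slc7a11 encodes xCT, which brings in cystine for glutathione in exchange for glutamate (chromosome 3, 49892526 to 50443614, minus strand). It was low everywhere, at 2.54, 2.35 and 1.30 CPM with the mutant, 1.20, 1.92 and 1.49 CPM with the wildtype and 2.64, 1.82 and 1.03 CPM with the empty vector. Its SE of 0.36 to 0.39 on the log2 scale was the largest beside that of Slc38a5 for mutant against empty vector, and none of its 3 comparisons was called (adjusted p 0.416 to 0.832).

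Slc7a1 encodes CAT1, a carrier of arginine and lysine and in mouse the receptor of ecotropic murine retroviruses; it does not use CD98 (chromosome 5, 148327410 to 148399904, minus strand). It held 124, 119 and 127 CPM with the mutant, 93.1, 73.8 and 98.6 CPM with the wildtype and 84.0, 103 and 128 CPM with the empty vector. The empty vector range covered all mutant and 2 of the 3 wildtype libraries, while all mutant libraries were above all wildtype libraries. It was not called for mutant (0.23 ± 0.15, adjusted p 0.509) or wildtype (−0.25 ± 0.16, adjusted p 0.277) against empty vector. Mutant against wildtype gave 0.48 ± 0.16 (adjusted p 0.0383), a call lost without any 1 mutant library, wildtype replicates 1 or 2, or empty vector replicate 2 (adjusted p 0.0564 to 0.143), and with mutant replicates 1 and 2 summed (adjusted p 0.0883).

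**Figure D2:**
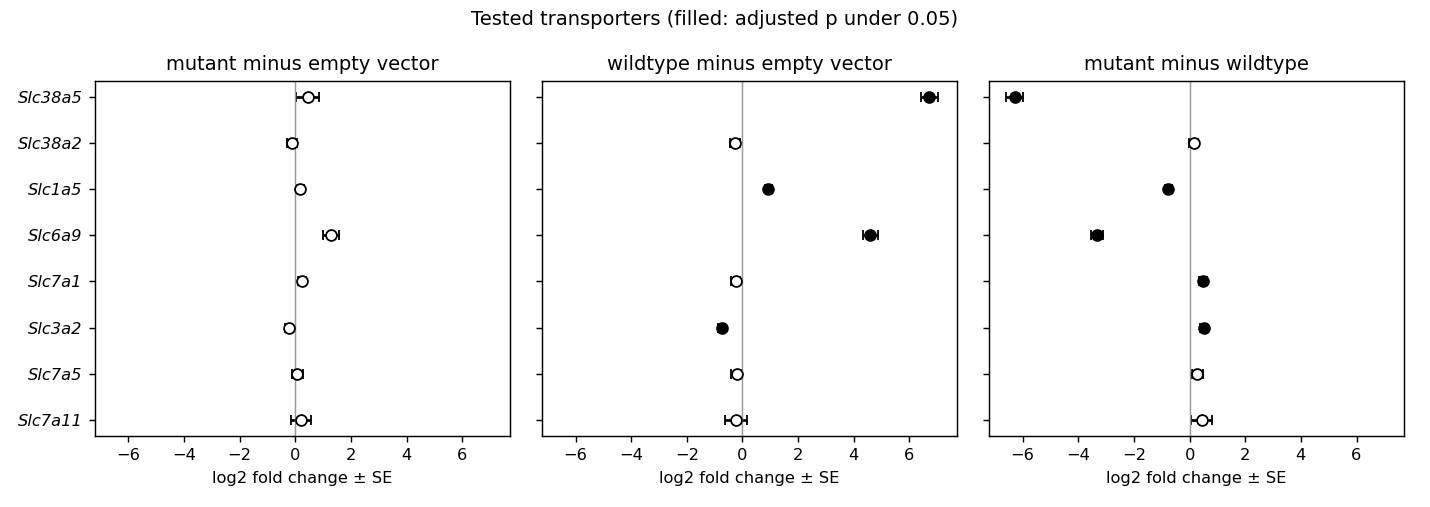
Log2 fold changes (horizontal axis) of the 8 tested transporters for mutant minus empty vector, wildtype minus empty vector and mutant minus wildtype; bars are SE and filled points have an adjusted p under 0.05. Filled points appear for Slc38a5, Slc6a9, Slc1a5 and Slc3a2 in the middle panel, for these and Slc7a1 in the right panel, and for no gene in the left panel.

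With mutant GATA1 against the empty vector, 0 of the 8 tested members were called in edgeR, where 0.21% of all tested genes were called higher and 0.0601% lower. Slc6a9 was the 1 member with an unadjusted p under 0.05 (0.000575), a level that 12.9% of all tested genes reached, and the 1 member called by DESeq2. The median log2 fold change of the members was 0.18, beside 0.00 over all genes (−0.000522). For mutant against wildtype, Slc7a1 and Slc3a2 were called higher and Slc38a5, Slc6a9 and Slc1a5 lower, where 13.2% of genes were called higher and 12.7% lower. The members' median was 0.21 and that of all genes −0.01. The count of 2 higher members was 0 without mutant replicate 1, and 1 without mutant replicates 2 or 3, wildtype replicates 1 or 2 or empty vector replicate 2, through Slc7a1 in each and Slc3a2 in the first. The 5 called members were those with an unadjusted p under 0.05, a level that 39.1% of genes reached, and those without overlap, against 23.3% of genes higher and 20.9% lower. With the replicate number as block, fitted to the mutant and wildtype libraries alone, 2323 genes were called higher and 2417 lower over all genes, against 1313 and 1267 without it, while the counts of called members stayed at 2 and 3. The comparisons against the empty vector share its 3 libraries.

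Per kilobase of exon, the order of the transporters differed between the groups. Levels between genes were compared as CPM per kilobase of the joined exons of coding transcripts in GENCODE M21. With the mutant, Slc3a2 led at 149 ± 9.48 CPM per kilobase (SD, n = 3), followed by Slc38a2 (22.9 ± 2.42), Slc7a1 (17.2 ± 0.612), Slc1a5 (14.1 ± 0.822) and Slc7a5 (5.63 ± 0.904), none of whose library ranges overlapped its neighbour's. Slc6a9 (0.696 ± 0.202), Slc38a5 (0.499 ± 0.273) and Slc7a11 (0.209 ± 0.0680) followed with overlapping neighbours. With the wildtype, Slc3a2 (104 ± 4.72) was followed by Slc38a5 (39.5 ± 6.20), then by Slc1a5 (23.9 ± 1.74) and Slc38a2 (20.7 ± 5.78), which overlapped each other. Slc7a1 (12.3 ± 1.82), Slc6a9 (7.01 ± 0.990) and Slc7a5 (4.63 ± 0.939) came next with no overlap between neighbours. Slc43a1 (0.371 ± 0.273) and Slc7a11 (0.156 ± 0.0370) overlapped at the low end. With the empty vector, Slc3a2 (176 ± 23.1) and Slc38a2 (21.9 to 27.9 over the 3 libraries) led, Slc7a1 (14.6 ± 3.06) and Slc1a5 (12.5 ± 1.73) overlapped, Slc7a5 (5.36 ± 0.720) stood apart, and Slc38a5 (0.367 ± 0.134), Slc6a9 (0.288 ± 0.0469) and Slc7a11 (0.186 ± 0.0817) overlapped in turn. Slc38a5 was thus in rank 7 with the mutant, 2 with the wildtype and 6 with the empty vector. The sum of all 10 members was 210 ± 8.79 CPM per kilobase with the mutant, 213 ± 12.2 with the wildtype and 234 ± 26.6 with the empty vector, and the library ranges of the groups overlapped. The heavy chain Slc3a2 was the largest part of each sum, at 149, 104 and 176 CPM per kilobase in that order. Its lower level with the wildtype and the higher level of Slc38a5 (39.5, against 0.367 with the empty vector) go opposite ways. The sum therefore hides members that moved apart.

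A wider list held 25 other plasma membrane amino acid transporters. Of these, 18 were below the low-count limit, 11 of them with 0 counts in every library, and 7 were tested. Over the whole table, 12975 of 27999 rows had 0 counts in every library and 9978 genes were tested. With wildtype GATA1 against the empty vector 1 of the 7 rose and 2 fell, against 11.4% of all tested genes higher and 11.9% lower, and their median log2 fold change was −0.04. Slc7a8, which encodes LAT2, a CD98 light chain for neutral amino acids, fell, with a log2 fold change of −1.99 ± 0.17 (adjusted p 2.9e-06). It held 387, 375 and 350 CPM with the mutant, 102, 115 and 142 CPM with the wildtype and 370, 485 and 573 CPM with the empty vector, so the wildtype libraries were below all others. Slc7a6, the light chain y+LAT2 that exchanges cationic for neutral amino acids, had −0.73 ± 0.21 with the wildtype (adjusted p 0.0259), a call lost without wildtype replicate 1 or empty vector replicates 2 or 3, and with only the 6 libraries compared (alternatives 0.0146 to 0.135). Slc16a10, the aromatic amino acid carrier TAT1, which needs no heavy chain, rose by 0.998 ± 0.184 on the log2 scale (adjusted p 0.00168). For mutant against empty vector 0 of the 7 were called in edgeR. Slc7a6 (0.72 ± 0.19, adjusted p 0.223) and Slc7a8 (−0.36 ± 0.16, adjusted p 0.382) had an unadjusted p under 0.05, as did 12.9% of all tested genes. Slc36a1 had −0.38 (adjusted p 0.664). DESeq2 also called 0, but Slc7a6 was called without the low-count filter and without empty vector replicate 3. Mutant against wildtype called Slc7a8 (1.63 ± 0.17, adjusted p 1.8e-05) and Slc7a6 (1.45 ± 0.21, adjusted p 0.000304) higher and Slc16a10 (−0.995 ± 0.183, adjusted p 0.00185) lower. In that comparison 13.2% of all tested genes were called higher and 12.7% lower.

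Slc7a8 was the most abundant CD98 light chain per length. The 6 light chains that pair with CD98 (Slc7a5, Slc7a6, Slc7a7, Slc7a8, Slc7a10, at 0 in all libraries, and Slc7a11) summed to 104, 101 and 94.1 CPM per kilobase with the mutant, 31.7, 33.7 and 41.1 with the wildtype and 97.2, 126 and 149 with the empty vector. Slc7a8 made up 91.0% ± 0.105, 82.4% ± 3.16 and 93.9% ± 0.501 of that sum with the mutant, the wildtype and the empty vector (SD, n = 3). Relative to the heavy chain Slc3a2, the light chain sum was 66.6%, 66.4% and 68.2% in mutant libraries, 30.1%, 31.0% and 41.4% in wildtype libraries and 62.3%, 74.1% and 74.0% in empty vector libraries. All wildtype libraries were below all others in this ratio, and mutant and empty vector libraries overlapped. This ratio was computed as a description after Slc7a8 had been seen, with no test, and RNA levels do not give the share of assembled proteins.

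**Figure D3:**
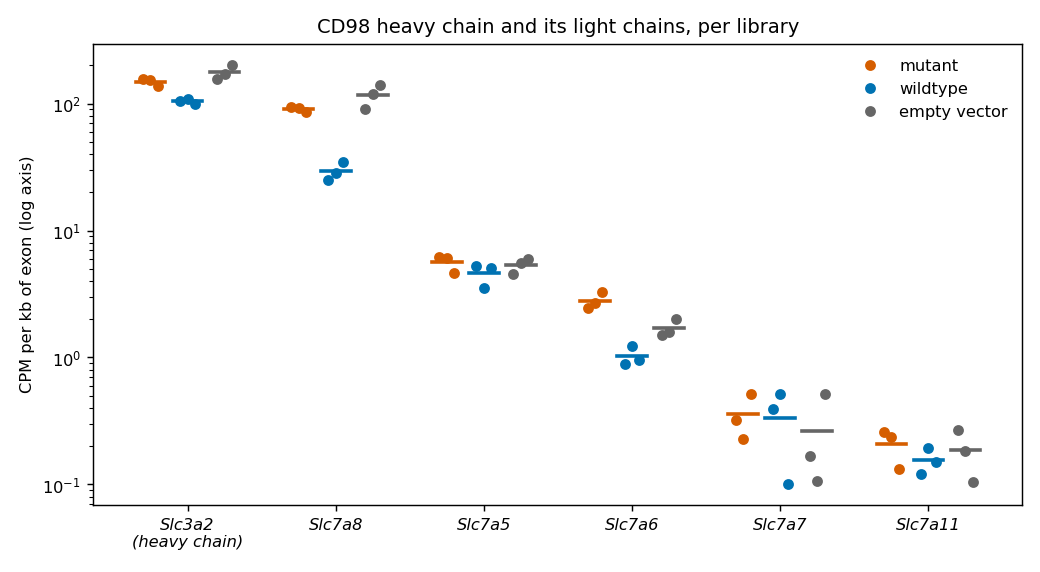
CPM per kilobase of exon (log axis) of the heavy chain Slc3a2 and of its detected light chains, with mutant, wildtype and empty vector libraries from left to right for each gene; points are libraries and lines group means. Slc3a2 falls to 104 CPM per kilobase with the wildtype, against 176 with the empty vector, while Slc7a8 has means of 90.7, 29.3 and 117 with the mutant, the wildtype and the empty vector.

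In the list on the amino acid response, 7 of 13 tested genes (of 18 listed) rose and 1 fell with wildtype GATA1 against the empty vector. Over all tested genes, 11.4% were called higher and 11.9% lower. The list includes the kinases Eif2ak1 and Eif2ak4, of which Eif2ak1 is regulated by heme and is counted among the 7. The median log2 fold change was 0.41, beside −0.04 over all tested genes. Those that rose were Ddit3 (CHOP, 2.34 ± 0.16), Ppp1r15a (a phosphatase subunit acting on eIF2α, 2.23 ± 0.16), Nupr1 (2.69 ± 0.32), Trib3 (2.29 ± 0.22), Atf5 (1.42), Eif2ak1 (the heme-regulated eIF2α kinase, 1.39) and Atf4 itself (0.41), with adjusted p-values up to 0.0166. The call of Atf4 was lost when wildtype replicate 1, wildtype replicate 2 or empty vector replicate 2 was left out and with only the 6 libraries compared (alternatives 0.00282 to 0.0818). Ddit4, an inhibitor of mTORC1, fell (−1.10, adjusted p 0.00424), and the count of genes that fell was 2 without wildtype replicate 3 and without empty vector replicate 1. Asns, which makes asparagine and is a classic ATF4 target, had −0.19 (adjusted p 0.228). Among the transporters, Slc38a2, Slc7a5, Slc7a1 and Slc7a11 had log2 fold changes of −0.27 to −0.21 in the same comparison and were not called. Slc3a2 fell (−0.75), while Slc38a5 (6.72), Slc6a9 (4.60) and Slc1a5 (0.93) rose. Which of these transporters respond to ATF4 in these cells was not tested. For mutant against empty vector 0 of the 13 were called in edgeR and in DESeq2, and 4 had an unadjusted p under 0.05, against 12.9% of all tested genes. The largest values were those of Atf5 (0.71) and Trib3 (0.65), with Ppp1r15a at 0.48. Atf5 and Trib3 were called without the low-count filter. For mutant against wildtype 7 were lower and 2 higher, against 12.7% and 13.2% of all tested genes. The 7 were the same 7 that rose above, with Ddit3 at −2.01, Ppp1r15a at −1.75 and Nupr1 at −2.43. Among them Atf5 (−0.71) and Atf4 (−0.42) were called in 10 and 11 of 17 alternatives, both lost without mutant replicates 2 or 3 or wildtype replicates 1 or 2, Atf4 also without mutant replicate 1 and Atf5 also without empty vector replicate 2. Ddit4 (0.84) and the amino acid sensing kinase Eif2ak4 (0.54) were higher; their count was 0 without mutant replicate 1, 1 without mutant replicate 2 or wildtype replicates 1 or 2, and 4 with the replicate block.

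Of 11 tested genes of serine, glycine and heme entry, 3 rose and 2 fell with the wildtype against the empty vector (median −0.04), beside 11.4% of all tested genes called higher and 11.9% lower. Alas2, which joins glycine to succinyl-CoA, rose by 6.46 ± 0.21, and Slc25a38, which carries glycine into mitochondria, by 1.68 ± 0.16 (adjusted p 1.3e-09 and 7.0e-06). Mthfd2, an enzyme of mitochondrial folate metabolism, rose by 1.06 (adjusted p 1.6e-05). Shmt1, the cytosolic enzyme that interconverts serine and glycine, fell, at −0.77 on the log2 scale (adjusted p 0.000323); Mthfd1l (−0.36) was also called, but in only 5 of 16 alternatives, and its call was lost without any 1 mutant library, without empty vector replicates 2 or 3 and without wildtype replicates 1 or 2 (alternatives 0.00773 to 0.168). With the mutant against the empty vector 1 of 11 was called, Alas2 (2.01 ± 0.19, adjusted p 0.000271), while Slc25a38 had 0.17, Gcsh −0.24 and Psat1 −0.21. Slc6a9 (glycine uptake), Slc25a38 (mitochondrial import) and Alas2 (use) thus had 24.2-fold, 3.20-fold and 88.3-fold higher RNA with the wildtype than with the empty vector. Their fitted ratios of mutant to empty vector were 2.42, 1.13 and 4.03, of which the last was called. Alas1 of the same list encodes an enzyme of the same reaction as Alas2 and did not rise. Against the empty vector its log2 fold change was −0.34 with the wildtype (adjusted p 0.113) and −0.02 with the mutant (adjusted p 0.964). It averaged 24.5 CPM with the empty vector and 19.3 CPM with the wildtype, beside 6.96 and 614 CPM for Alas2. The ratios of Alas2 are therefore not those of both genes together. For mutant against wildtype Alas2 (−4.45), Slc25a38 (−1.51) and Mthfd2 (−0.98) were lower and Shmt1 (0.65) and Mthfd1l (0.47) higher. The shares over all tested genes were 12.7% lower and 13.2% higher. With the replicate block in the mutant and wildtype libraries 4 genes of the list were higher.

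In the list on cystine use and glutathione, 3 of 11 tested genes rose with the wildtype and 1 fell (median 0.31), where the shares over all tested genes were 11.4% and 11.9%. The peroxidases Gpx1 (1.21 ± 0.17) and Gpx4 (1.16 ± 0.19) rose, as did the glutathione synthetase Gss (0.53, adjusted p 0.0238, lost with only the 6 libraries compared, without empty vector replicate 2 and without either of wildtype replicates 1 and 2). Gsr, glutathione reductase, fell (−0.54), a call held by 8 of 16 alternatives and lost without mutant replicates 1 or 2, wildtype replicate 2 or empty vector replicates 1 or 2. For mutant against wildtype 5 were lower and 0 higher in edgeR and 0 higher in DESeq2, and 7 had an unadjusted p under 0.05. Over all tested genes, edgeR called 12.7% lower and 13.2% higher, and 39.1% had an unadjusted p under 0.05. The 5 were Gpx1 (−0.92), Gpx4 (−1.04), Txnrd1 (thioredoxin reductase, −0.49), Gclm (−0.54) and Gclc (−0.65), the subunits of the enzyme that starts glutathione synthesis. The calls of Gclm and Gclc were lost without mutant replicates 1 or 2, without wildtype replicates 1 or 3 and without empty vector replicate 2, that of Gclc also without mutant replicate 3, and that of Txnrd1 without mutant replicate 2 or wildtype replicate 1. The count of 5 was 2 without mutant replicate 2, without wildtype replicate 1 and with mutant replicates 1 and 2 summed, and 3 without mutant replicate 1, without empty vector replicate 2 and with the block in all 9 libraries. With the replicate block in the mutant and wildtype libraries 2 were higher and 6 lower. For mutant against empty vector 0 were called in edgeR and in DESeq2, and 1 had an unadjusted p under 0.05, against 12.9% of all tested genes. That gene was Hmox1 (heme oxygenase, −0.50), while Keap1 had 0.22 and Gpx1 0.29.

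The last lists covered sensing of amino acids at the lysosome and glutamine use. Over all tested genes, 11.4% were called higher and 11.9% lower with the wildtype against the empty vector. Of 21 tested genes of lysosomal sensing and mTORC1, 2 rose and 0 fell in edgeR with the wildtype. An unadjusted p under 0.05 was reached by 3 of them and by 36.5% of all tested genes. Rragd, a GTPase that brings mTORC1 to the lysosome, rose by 2.09 ± 0.21 and stood at 2.99, 23.0 and 5.42 CPM on average with the mutant, the wildtype and the empty vector. Pqlc2, a lysosomal exporter of cationic amino acids, rose by 0.88 (adjusted p 0.00980), while Nprl3 had 0.41 (adjusted p 0.0758). Without wildtype replicate 3, 4 rose. For mutant against wildtype Rragd (−2.95) and Lamtor5 (−0.48) were lower and the lysosomal transporter Slc38a7 (0.47) higher; the calls of Lamtor5 and Slc38a7 held in 10 and 7 of 17 alternatives and were both lost without any 1 mutant library or wildtype replicate 1, Lamtor5 also without wildtype replicate 2 and Slc38a7 also without wildtype replicate 3 or empty vector replicate 2. Over those alternatives the list had 0 to 4 genes higher and 1 to 6 lower, with 4 and 6 under the replicate block in the mutant and wildtype libraries. Without the block, edgeR called 13.2% of all tested genes higher and 12.7% lower for mutant against wildtype. Of 9 tested genes of glutamine and glutamate metabolism, Glud1, glutamate dehydrogenase, fell with the wildtype (−0.56, adjusted p 0.00179), while Glul had 0.32 and Oat −0.25; the count that fell was 2 when replicate 3 of the wildtype or of the empty vector was left out, and Glul was called higher without wildtype replicate 3. Glud1 was higher in mutant than in wildtype libraries (0.43, adjusted p 0.00972), at 0.0503 without wildtype replicate 1, and Got2 (0.30) and Got1 (0.16) were not called, but Got2 was called with the replicate block in the mutant and wildtype libraries (adjusted p 0.00824). With the mutant against the empty vector 0 genes of either list were called in edgeR or DESeq2. An unadjusted p under 0.05 was reached by 5 of 21 lysosomal genes, 1 of 9 glutamine genes and 12.9% of all tested genes. Values not called were those of Rragd (−0.86), Rptor (0.44) and Rraga (−0.34). Without empty vector replicate 3, Rragd and Lamtor3 of the lysosomal list were called lower and Rptor higher.

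**Figure D4:**
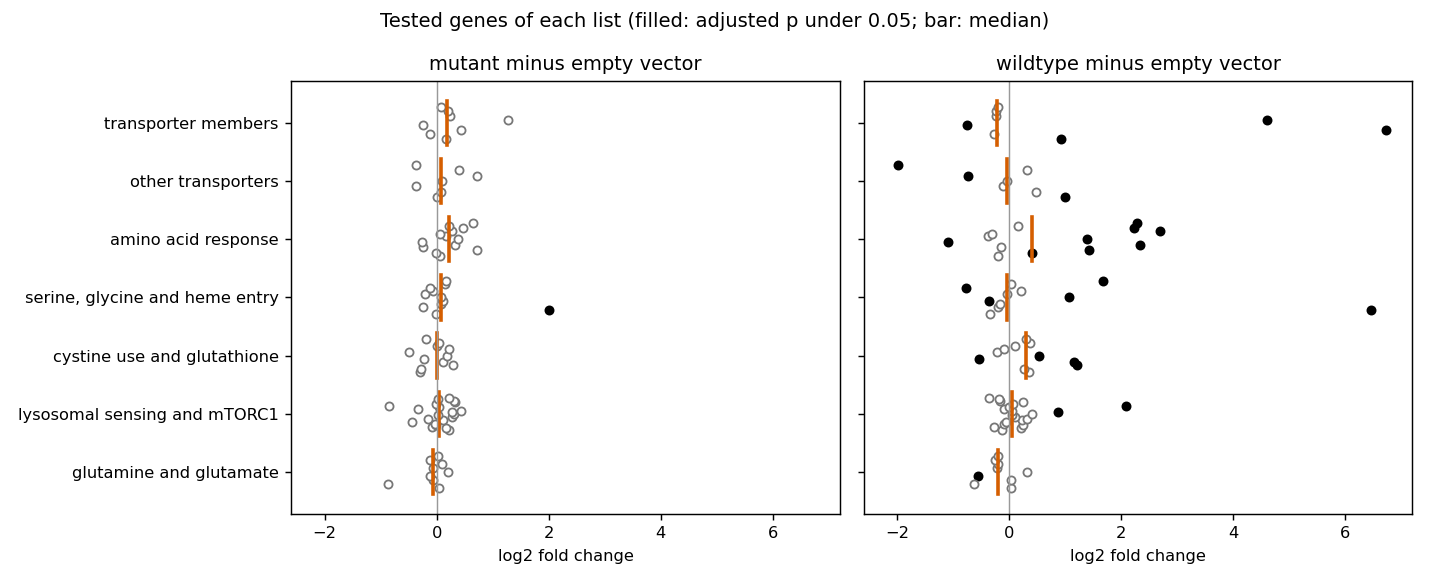
Log2 fold changes (horizontal axis) of the tested genes of the transporter members and the 6 related lists, for mutant minus empty vector (left) and wildtype minus empty vector (right); filled points have an adjusted p under 0.05 and bars are list medians. In the left panel the single filled point is Alas2 (2.01); in the right panel the points farthest right are Slc38a5 (6.72), Alas2 (6.46) and Slc6a9 (4.60), and the one farthest left is Slc7a8 (−1.99).

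The genes whose log2 CPM across the 9 libraries was most like that of Slc38a5, searched over 8071 tested genes averaging 5 CPM or more, were Chst10, Btg2, Grina, Gtpbp2 and Slc25a51, with Pearson r of 0.994, 0.994, 0.993, 0.992 and 0.992. Genes with Gm-numbered, Rik or identifier-like names were left out of that search. The correlations describe libraries that share their groups and carry no test. The log2 fold changes of the 5 genes for wildtype against empty vector were 0.80 to 3.25, beside 6.72 for Slc38a5. Chst10, a sulfotransferase, averaged 116, 448 and 111 CPM with the mutant, the wildtype and the empty vector, and Btg2, an antiproliferative gene, 9.96, 85.1 and 8.94 CPM. Slc25a51, the mitochondrial NAD carrier, averaged 65.7, 110 and 63.1 CPM. Mutant means near the empty vector means follow from the choice of these 5 genes by likeness to Slc38a5. Their log2 fold changes for mutant against empty vector were 0.06 to 0.18, beside 0.44 ± 0.41 for Slc38a5.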

How the data were processed

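RNA was measured by Smart-seq2 (full-length cDNA, no strand kept) with Nextera-based indexing in 9 libraries, per the labels' protocols. The authors deposited raw counts of reads per gene for 27998 mouse genes and human GATA1. STAR was used with builds GRCm38.p4 and hg19, per the submitters' processing notes; which counter and annotation were used, and how multiply mapping reads were treated, the sources used here do not give. The human row was left out of the tests.

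Counts were tested with edgeR 4.0.16 (R 4.3.3): TMM, filterByExpr, 1 mean per group over all 9 libraries (6 residual degrees of freedom), quasi-likelihood test, Benjamini-Hochberg adjustment over 9978 genes, threshold 0.05. SE, an approximation, is |log2 fold change| divided by √F. DESeq2 1.42.0 was an alternative. Log2 CPM used a prior count of 2. The test was checked on simulated counts. Intervals and floors (3 counts) cover counting error only.

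Groups and replicate numbers came from sample titles. Deviations from the group means correlated at 0.171, 0.286 and 0.533 between mutant and wildtype libraries of the same number (replicates 1, 2 and 3). With wildtype libraries of another number, the highest values were 0.24, 0.223 and −0.286 for mutant replicates 1, 2 and 3. Correlations of either group with empty vector libraries of the same number were −0.435 to −0.202. The labels state no pairing, and these values set a same-number pair clearly apart only for replicate 3. Members, lists and tests were chosen with earlier results of these data known. Named genes were all 10 members, the 3 tested genes with the smallest p of each list and comparison, and the 5 genes most like Slc38a5; other genes were named after their values were seen, and some items are not reported here. All 107 listed genes were looked up by symbol; Slc66a1 and Castor1 matched no row, while their older symbols Pqlc2 and Gatsl3, listed as well, did. Promoter sequences are from RefSeq (GRCm38.p6) and coordinates from GENCODE M21 (GRCm38).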

Additional observations from a re-analysis of the deposited data

How the results depend on the processing

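The calls of Slc38a5, Slc6a9, Slc1a5 and Slc3a2 for wildtype against empty vector held under all 16 alternatives, as did the differences of the first 3 between mutant and wildtype under 17. Called members for mutant against empty vector numbered 1 higher with DESeq2 and with no low-count filter (0 to 1 leaving out 1 library each); for wildtype against empty vector 1 to 2 lower leaving out 1 library; for mutant against wildtype 1 higher with mutant replicates 1 and 2 summed, and 0 to 2 leaving out 1 library.

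Over all genes, mutant against empty vector gave 63 higher and 39 lower with DESeq2, 119 and 296 with no filter, 12 and 2 with the replicate block in all 9 libraries, and 9 and 2 with mutant replicates 1 and 2 summed; leaving out 1 library gave 5 to 227 higher and 2 to 610 lower, the highest without empty vector replicate 3. Leaving out 1 library, wildtype against empty vector gave 732 to 1614 higher and 655 to 1641 lower. Mutant against wildtype gave 693 to 1581 higher and 778 to 1577 lower in the same way, 779 and 772 with mutant replicates 1 and 2 summed, and 2323 and 2417 with the replicate block in the 6 libraries, an alternative chosen after seeing the data. The causes were not tested. The replicate block changed no call of a member. Library totals in place of TMM moved the median gene for mutant against wildtype to 0.10 (log2), against −0.01, with no change in a tested member's direction. Of 588 list counts under alternatives, 507 stayed within 1.5 times, with counts of 0 that stayed at 0 among them. Single counts were less stable: that of lysosomal genes higher for mutant against wildtype moved by more in 15 of 17 alternatives. Low counts limit Slc38a1, Slc43a1, Slc7a11 and, outside the wildtype, Slc38a5.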
